A study of Mus musculus with 4 samples.

Results

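The genes described here encode 3 inhibitors of DNA binding, Id1, Id2 and Id3, and the 3 E proteins Tcf3, Tcf4 and Tcf12, measured in virus-specific CD8+ T cells of mixed bone marrow chimeras. They are all genes whose symbol in the count tables equals 1 of these names, which gave 6 of 27998 genes, whatever their values. E proteins are transcription factors of the basic helix-loop-helix (bHLH) family, which bind DNA in pairs at short sites called E-boxes. Id proteins have the helix-loop-helix through which pairs form but lack the basic stretch that contacts DNA, so that an E protein held by an Id protein does not bind. In CD8+ T cells Id2 is best known from effector cells and Id3 from memory precursors, while E proteins are known for their part in lymphocyte development.

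The cells were sorted with H-2Db-GP33 tetramers from the spleens of 2 chimeras on day 8 after infection with LCMV Armstrong. Each chimera was a sublethally irradiated Rag1-/- host, which makes no mature T or B cells of its own but keeps other blood cells, given equal parts of WT (CD45.1) and Bcl3-/- (CD45.2) bone marrow on the C57BL/6 background and left for at least 6 weeks before infection. WT and Bcl3-/- cells were separated by their CD45 alleles and made into 1 library each, so that chimera 1 gave WT1 and KO1 and chimera 2 gave WT2 and KO2 (n = 2 libraries per genotype). Irradiation, transfer and infection were thus common to both genotypes, the deletion was carried by every blood cell of Bcl3-/- origin and not by CD8+ T cells alone, and the CD45 allele goes with the genotype, so that these cannot be told apart. The age of the animals was not given in the sources used here.

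Transcripts were counted at their 3′ end as unique molecular identifiers (UMIs), of which a captured transcript gives 1 whatever its length, and levels are a gene's UMIs scaled to 1000000 UMIs of the cells summed (CPM). In the order WT1, WT2, KO1 and KO2, the total was 21193300, 20358780, 22922219 and 22672343 UMIs. Barcodes with 500 or more genes and no more than 10% of UMIs from mitochondrial genes were taken as cells, which gave 4941, 8092, 5366 and 6494 cells, with medians of 3571, 2019, 3620.5 and 2948 UMIs per cell. WT2 was therefore the shallowest library per cell. Each pair of libraries shared 37 to 63 cell barcodes, against 36.0 to 71.3 for barcodes drawn at random.

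Bcl3, the deleted gene, did not separate the libraries by their labels. Its level was 33.2 CPM in WT1, 107.7 CPM in WT2, 27.6 CPM in KO1 and 86.6 CPM in KO2, so that it was higher in chimera 2 for both labels and a little lower in KO than in WT within each chimera. Its log2 fold change (KO over WT) was -0.33 (edgeR adjusted p = 0.837, or 0.0201 with chimera as a block). Which part of Bcl3 was deleted is not given in the sources used here, and 3′ UMIs from outside that part check nothing. WT and KO below therefore mean the libraries labelled so.

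T cells were sorted into classes by the UMIs of marker genes, none of which is an Id or E protein gene. A cell counted as a T cell with UMIs of at least 2 of 5 CD3 and CD8 genes, unless it had 3 of 7 B cell, 6 of 7 myeloid or all 3 plasma cell genes, which kept 4678, 7741, 5024 and 6191 cells of WT1, WT2, KO1 and KO2. Cycling cells were set apart (462, 563, 314 and 417 cells in that order). Of the rest, naive-like cells (marked by genes such as Ccr7, Lef1, Dapl1 and Igfbp4) made up 84, 118, 52 and 93 cells, precursor cells (Il7r, Tcf7, Slamf6, Bcl2, Xcl1) 266, 137, 232 and 161 cells, and terminal cells (Klrg1, Cx3cr1, Zeb2, S1pr5, Gzma, Klre1, Tbx21) 846, 856, 1707 and 1540 cells. The remaining 3020, 6067, 2719 and 3980 cells passed none of these gates. The classes are ranges and not sharp types. Of the naive-like cells 56, 83, 33 and 45 had exactly the 2 markers required, and of the precursor cells 223, 119, 207 and 141 had exactly the 3 required. Terminal cells with exactly the 3 required numbered 513, 552, 806 and 758.

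The class labels were checked against genes that the gates did not use. Gzmb, which encodes the effector protease granzyme B, was at 504, 532, 643 and 360 CPM in naive-like cells of WT1, WT2, KO1 and KO2. It was at 1780, 1714, 1451 and 1466 CPM in the remaining T cells, and at 310, 348, 328 and 207 CPM in B cell-like clusters, which should lack it. The naive-like level was thus nearer to that of B cell-like clusters than to that of the remaining T cells, and naive-like names a marker pattern only. Of naive-like cells 79.8%, 82.2%, 73.1% and 83.9% fell into clusters named naive-like, as did 38.0%, 57.7%, 9.48% and 34.2% of precursor cells and 5.23%, 4.30%, 1.95% and 1.63% of the remaining T cells. In precursor cells and in the remaining T cells, both KO libraries held a smaller share of such cells than both WT libraries. The cluster named naive-like in each library also met the naming rule for precursor, with Tcf7 among its leading genes. No cluster was named precursor, so that naive-like clusters are not set apart from precursor cells. Of terminal cells 37.7%, 48.1%, 52.5% and 55.4% fell into clusters named terminal, a larger share in both KO than in both WT libraries.

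Id2 was by far the most abundant of the 6 genes. In all T cells its level was 777 CPM in WT1, 687 CPM in WT2, 1254 CPM in KO1 and 1508 CPM in KO2, while Tcf3, next in level, lay between 100.4 and 123 CPM. Both KO libraries lay above both WT libraries. The gene (ENSMUSG00000020644) lies on the minus strand at chr12:25093799-25097140 (GRCm38). An E-box (CANNTG, a pattern that reads the same on both strands) lies upstream of its RefSeq start and is shown because E-boxes are the sites E proteins bind. The 30 bases below were taken from RefSeq (GRCm38.p6) at chr12:25096271-25096300 on the minus strand, within an intron of a longer Id2 transcript, with the E-box in capitals.
Id2: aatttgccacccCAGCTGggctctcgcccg
This E-box was the only match in the 250 bases before that start, and 66.2% of 32817 such windows before RefSeq gene starts held at least 1. The window of Id3 held none and that of Tcf3 held 1. A match of this kind describes the sequence and does not show binding.

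Across T cell classes, Id2 was lowest in naive-like cells of every library. It was at 251 CPM (WT1), 226 CPM (WT2), 633 CPM (KO1) and 443 CPM (KO2) there. Precursor cells had 603, 448, 1268 and 1371 CPM in the same order, terminal cells had 826, 668, 1174 and 1439 CPM, and cycling cells had 633, 573, 957 and 1192 CPM. The remaining T cells had 837, 731, 1382 and 1631 CPM, the highest level of the 5 classes in each of the 4 libraries. Among WT libraries the order of the means was remaining T cells (784 ± 75.3 CPM, SD, n = 2), terminal (747 ± 112), cycling (603 ± 42.6), precursor (526 ± 109) and naive-like (238 ± 17.4). The first pair in this order overlapped, as did cycling and precursor cells, while the naive-like level lay below every other WT value. The few gated naive-like cells outside naive-like clusters (17, 21, 14 and 15) had Id2 at 506, 470, 1480 and 759 CPM, from 41, 37, 95 and 43 UMIs, so that in KO1 these were not below the other classes, and Id3 at 61.7, 50.8, 15.6 and 0 CPM, from 5, 4, 1 and 0 UMIs.

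**Figure D1:**
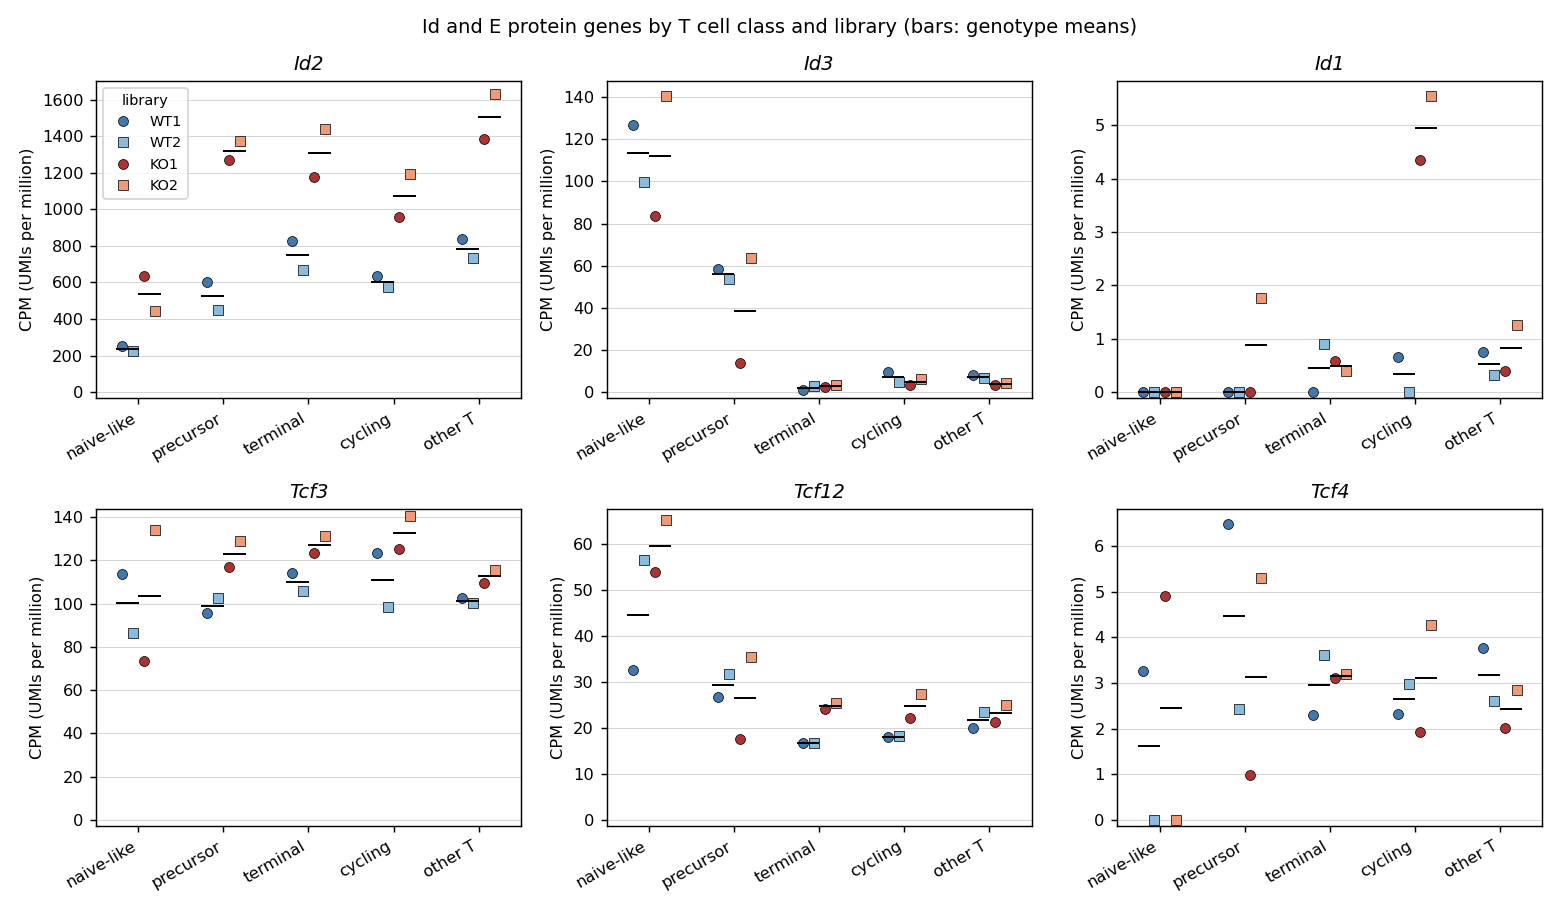
Each panel shows the level (CPM, linear axis from 0) of 1 gene in 5 T cell classes, with a point for each of the 4 libraries and a bar for the mean of each genotype (n = 2); "other T" are the remaining T cells. In each library Id2 was lowest and Id3 and Tcf12 were highest in naive-like cells, and the KO points of Id2 lay above the WT points in every class.

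Id2 was lower in naive-like cells in both comparisons that were run. Against the mean of the other 4 classes, in a model over the 20 sums of UMIs per library and class with library as a term, its log2 fold change was -1.39 (SE 0.10, edgeR adjusted p = 2.24e-15), where 10.5% of 9256 genes were called. Against the remaining T cells alone it was -1.62 (adjusted p = 1.59e-16), where 9.83% were called. For the other classes the direction of the difference changed with the comparison. Precursor cells had a log2 fold change of 0.23 against the mean of the others (SE 0.06, adjusted p = 0.0216; 5.27% of genes called) but -0.32 against the remaining T cells (adjusted p = 0.00259; 3.54% called). Terminal cells had 0.48 (SE 0.06, adjusted p = 3.64e-09; 21.5% called) but -0.12 (adjusted p = 0.314; 8.25% called). Cycling cells had 0.04 (adjusted p = 0.617; 45.9% called) but -0.48 (adjusted p = 3.8e-08; 50.4% called). The comparison with the remaining T cells was added after the data had been seen. The call for precursor cells against the mean of the others was lost without KO1 (0.14, adjusted p = 0.211) or without KO2 (0.16, adjusted p = 0.331).

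Id3 had the opposite distribution. Naive-like cells had 127 CPM in WT1, 99.7 CPM in WT2, 83.4 CPM in KO1 and 141 CPM in KO2, from 39, 30, 17 and 41 UMIs. Precursor cells had 58.5, 53.6, 13.6 and 63.5 CPM, from 72, 22, 14 and 36 UMIs. Terminal cells had 1.15, 2.72, 2.36 and 3.40 CPM and the remaining T cells 7.91, 6.87, 3.31 and 4.50 CPM. All naive-like values lay above all precursor values, and all of these above every value of the other 3 classes. Over the 4 libraries the mean was 113 ± 25.9 CPM (SD, n = 4) in naive-like cells, 47.3 ± 22.8 CPM in precursor cells, 6.02 ± 2.71 CPM in cycling cells, 5.65 ± 2.11 CPM in the remaining T cells and 2.41 ± 0.942 CPM in terminal cells. The last 3 classes overlapped. Without the cells of naive-like clusters, an alternative added once values were known, precursor cells had Id3 at 2.44, 26.7, 7.56 and 12.6 CPM and overlapped those classes too. Those clusters had both Tcf7 and Id3 among their leading genes in each library. Leaving them out thus also removes cells with precursor markers, and the rest do not stand for all precursor cells. Id3 (ENSMUSG00000007872) lies on the plus strand at chr4:136143497-136145755.

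Against the mean of the other classes, the differences of Id3 were the largest among the 4 members that passed the filter on low counts. Its log2 fold change was 3.77 in naive-like cells against the mean of the other classes (SE 0.24, edgeR adjusted p = 1.04e-16) and 4.28 against the remaining T cells (adjusted p = 1.37e-17). In precursor cells it was 2.16 (SE 0.21, adjusted p = 3.1e-10) and 2.99 (adjusted p = 3.14e-13). Terminal cells had lower Id3 in both comparisons, with -2.88 (SE 0.23, adjusted p = 3.06e-13) and -1.04 (adjusted p = 0.0105). Outside naive-like clusters, terminal cells had 1.15, 2.27, 2.23 and 3.41 CPM and the remaining T cells 2.87, 2.72, 1.84 and 2.71 CPM, so that terminal cells were lower in both WT and higher in both KO libraries. In cycling cells the value was -1.48 against the mean of the others (adjusted p = 5.08e-07) and 0.08 against the remaining T cells (adjusted p = 0.816).

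Markers of CD4 T cells, B cells and myeloid cells were counted in the same cells. A UMI of Cd4, Foxp3 or Cd40lg was found in 3, 5, 6 and 2 naive-like cells of WT1, WT2, KO1 and KO2, and without them Id3 was at 133, 105, 92.3 and 139 CPM and Id2 at 255, 237, 662 and 445 CPM. The summed level of 7 B cell genes in naive-like cells was 277, 116, 88.3 and 85.8 CPM, led by Ly6d in WT1 and H2-Aa in the other libraries, and Ms4a1, a defining B cell gene, was at 0 in each. The summed level of 7 myeloid genes was 657, 954, 780 and 4275 CPM, led by Cst3, Lyz2, S100a8 and S100a8. KO2 stood apart in the last list, whose part in its naive-like values was not tested.

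Few cells had an Id3 UMI. After thinning each cell to 1000 UMIs, an Id3 UMI was found in 0.881%, 0.768%, 0.419% and 0.631% of T cells of WT1, WT2, KO1 and KO2 (3.04%, 1.36%, 1.25% and 1.42% without thinning). The thinned share was 10.7%, 12.2%, 11.5% and 12.9% in naive-like cells and 0.236%, 0.234%, 0.176% and 0.065% in terminal cells. B cells had been planned as the background, but B cell-like clusters had Id3 at 205, 126, 131 and 166 CPM. Plasma cell-like clusters were taken in their place. At the same depth the share there was 0 of 50, 77, 40 and 48 cells, which allows up to 6.00%, 3.90%, 7.50% and 6.25%. The naive-like shares lay above these limits, but their exact 95% intervals began at 5.02%, 6.82%, 4.35% and 6.85%, so that in WT1 and KO1 they reached below the limit. Shares in terminal cells were within the limits.

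T cells with an Id3 UMI had less Id2 than those without, in each library. There were 142, 105, 63 and 88 such cells in WT1, WT2, KO1 and KO2. Their Id2 level was 346 against 794 CPM in WT1, 361 against 694 CPM in WT2, 830 against 1261 CPM in KO1 and 749 against 1521 CPM in KO2. Of these cells 43.0%, 31.4%, 27.0% and 39.8% were in the naive-like or precursor class, against 6.37%, 2.91%, 5.38% and 3.59% of the others. Tcf7, which encodes the transcription factor TCF-1 of memory precursors, was at 320 CPM against 47.0 CPM in WT1.

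**Figure D2:**
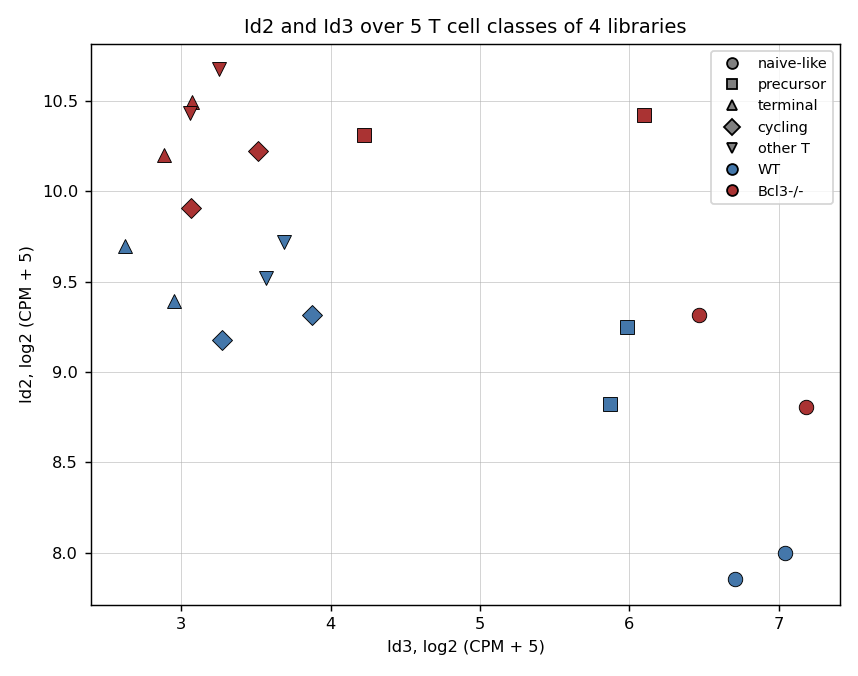
Points are the sums of 5 T cell classes in 4 libraries (20 in all), with Id3 on the horizontal and Id2 on the vertical axis, both as log2 of CPM plus 5; shape marks the class and colour the genotype. Naive-like and precursor sums lay to the right, and within each class the KO sums lay higher on the Id2 axis than the WT sums.

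Across these 20 sums the Pearson correlation of Id2 with Id3, on the log2 scale plotted there, was -0.661, and it was -0.853 over the 10 WT sums and -0.732 over the 10 KO sums. Sums of 1 library share its cells and depth, so that these values are descriptions. The genes whose pattern over the sums was most like that of Id2, among 5038 genes with at least 20 CPM on average, were S100a4 (r = 0.944), Mlx (0.925), Arhgdib (0.924), Cd47 (0.917) and Gnpda1 (0.901), and those most opposite were Jun (-0.877), Icam2 (-0.876), Psma6 (-0.867), Cd69 (-0.865) and Srrm2 (-0.842). For Id3 the most alike were Actn1 (0.966), Tcf7 (0.940), Asap1 (0.933), Rps18 (0.924) and Rpl3 (0.920), and the most opposite were Gzmb (-0.929), Sh3bgrl3 (-0.915), Lgals3 (-0.914), Cdc42 (-0.912) and Ctsd (-0.908). Tcf7 is also a marker of the precursor gate.

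Id2 was higher in KO than in WT libraries in every class of T cells. Over all cells its level was 737 CPM in WT1, 655 CPM in WT2, 1185 CPM in KO1 and 1433 CPM in KO2, and the genotypes did not overlap. The log2 fold change was 0.89 (SE 0.13, edgeR adjusted p = 0.0519), which did not pass the threshold of 0.05. With chimera as a block, since both genotypes came from the same animals, it passed (0.89, SE 0.09, adjusted p = 2.87e-05). None of the 6 genes was called by edgeR without the block, where 0.363% of 11566 genes were called. At an unadjusted p under 0.05 there were 2 members, Id1 and Id2, where 15.6% of all genes were under it. DESeq2 without the block called 1, Id2 (adjusted p = 6.35e-09), where it called 1.81% of genes, and edgeR with the block called Id2 where 9.65% of genes were called. Without WT1 or KO1 the unblocked test also called Id2 (adjusted p = 0.0268 and 0.0207).

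Within classes, the difference was measured between cells of the same gate. In naive-like cells it was 1.18 (SE 0.22, edgeR adjusted p = 0.0116, with 0.7% of genes called), in precursor cells 1.31 (SE 0.18, adjusted p = 0.00187; 0.487% called) and in the remaining T cells 0.92 (SE 0.13, adjusted p = 0.0421; 0.368% called), all on the log2 scale and all higher in KO. Terminal cells had 0.79 (SE 0.15, adjusted p = 0.058; 0.552% called) and cycling cells 0.80 (SE 0.14, adjusted p = 0.0757; 0.249% called). With the block Id2 was called in each of the 5 classes, with adjusted p from 7.51e-09 in terminal to 5.11e-07 in cycling cells, where 1.89% (naive-like), 1.37% (precursor), 6.04% (terminal), 3.35% (cycling) and 7.66% (remaining) of genes were called. In naive-like cells the call was lost with stricter gates (0.58, edgeR adjusted p = 0.851) and with DESeq2 (1.20, adjusted p = 0.0674; 0.208% of genes called). In the remaining T cells it was lost without WT2 (0.79, edgeR adjusted p = 0.0878), with DESeq2 size factors (adjusted p = 0.0591) and with stricter gates (adjusted p = 0.0571). The gated cells were not alike in other genes. The summed level of the 7 terminal markers in naive-like cells was 465, 389, 917 and 806 CPM in WT1, WT2, KO1 and KO2, led by Gzma in each, and that of Ccr7, a receptor of lymph node homing, in precursor cells was 12.2, 43.9, 3.90 and 22.9 CPM. The part of such shifts in the Id2 difference was not tested. Precursor cells outside naive-like clusters had Id2 at 782, 673, 1331 and 1665 CPM, still without overlap of the genotypes. Leaving out WT1, KO1 or KO2 added the call in terminal cells (adjusted p = 0.00185, 0.00213 and 0.0232) and in cycling cells (0.0223, 0.00465 and 0.0475).

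Within each chimera the ratio of the KO to the WT level was above 1 in all classes. In chimera 1 it was 2.53 in naive-like, 2.10 in precursor, 1.42 in terminal, 1.51 in cycling and 1.65 in remaining T cells. In chimera 2 it was 1.96, 3.06, 2.16, 2.08 and 2.23 in the same order. Chimera 2 had the higher ratio in 4 of the 5 classes. A test of whether the genotype difference in a class differed from that in the remaining T cells called none of the 4 genes that passed the filter (Id2, Id3, Tcf3 and Tcf12) in any class by edgeR, where 0.0108% (naive-like), 0% (precursor), 0.119% (terminal) and 0.151% (cycling) of genes were called. For Id2 in precursor cells this difference was 0.38 (SE 0.11, edgeR adjusted p = 0.999). At an unadjusted p under 0.05 there were 4 of 16 member and class pairs, Id2 in precursor, Id3 in naive-like, and Id3 and Tcf12 in terminal cells, where 5.22% (naive-like), 4.51% (precursor), 4.49% (terminal) and 5.74% (cycling) of all genes were under it.

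**Figure D3:**
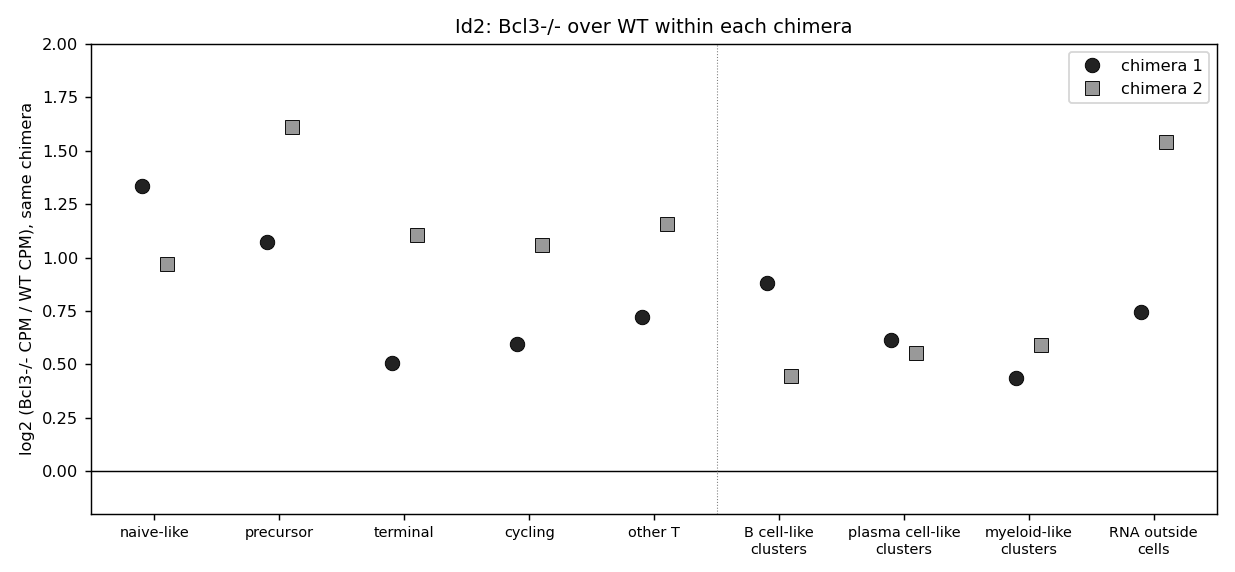
The log2 ratio of the Id2 level (CPM) in KO over WT cells of the same chimera is plotted for 5 T cell classes, 3 kinds of clusters of other cell types and RNA outside cells, with a circle for chimera 1 and a square for chimera 2. All points lay above 0, and those of the other cell types and of RNA outside cells did so too.

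In clusters of other cell types in the same libraries, Id2 counts differed in the same direction. Id2 was at 155, 156, 285 and 212 CPM in B cell-like clusters of WT1, WT2, KO1 and KO2, at 180, 191, 276 and 280 CPM in plasma cell-like clusters, and at 322, 231, 436 and 348 CPM in myeloid-like clusters. The ratios of KO to WT in chimeras 1 and 2 were 1.84 and 1.36 in B cell-like, 1.53 and 1.47 in plasma cell-like and 1.35 and 1.50 in myeloid-like clusters. Barcodes with at most 100 UMIs, which stand for RNA outside cells, had 508, 461, 852 and 1341 CPM, with ratios of 1.68 and 2.91. The B cell-like clusters also had Gzmb, a T cell effector transcript, at 310, 348, 328 and 207 CPM in WT1, WT2, KO1 and KO2. Their Id2 counts may thus hold RNA of T cells, and a difference in B cells themselves is not shown. How far such RNA contributed to the differences in T cells and in clusters of other cell types was not tested.

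Counts per cell differed in the same direction. In T cells thinned to 1000 UMIs, no Id2 UMI was found in 49.5%, 53.0%, 35.6% and 30.2% of cells of WT1, WT2, KO1 and KO2. Cells with 3 Id2 UMIs made up 5.28%, 3.48%, 10.5% and 11.9%, and those with 8 or more 0.021%, 0%, 0.06% and 0.227%. Both KO libraries had fewer cells at 0 and more at high counts than both WT libraries. In the same thinned cells of B cell-like clusters, 8.57%, 8.93%, 17.2% and 11.0% had an Id2 UMI, well under the 50.5%, 47.0%, 64.4% and 69.8% of T cells.

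**Figure D4:**
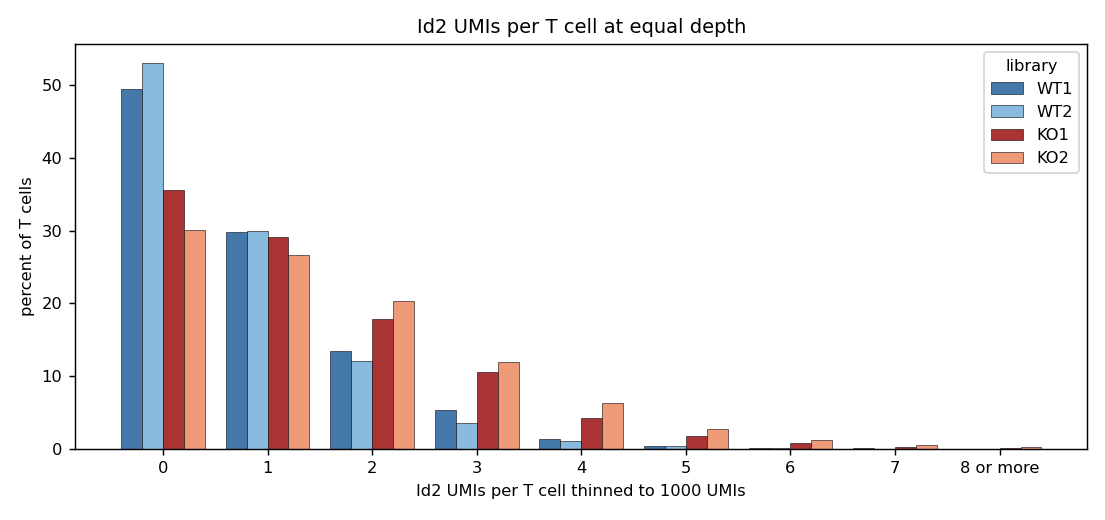
Bars give the percent of T cells of each library (vertical axis, from 0) by their number of Id2 UMIs after each cell was thinned to 1000 UMIs (horizontal axis). The WT bars were higher at 0 UMIs and the KO bars higher from 2 UMIs on.

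Among naive-like cells the thinned share with an Id2 UMI was 21.4% (exact 95% interval 13.2 to 31.7) in WT1, 17.4% (11.0 to 25.6) in WT2, 30.8% (18.7 to 45.1) in KO1 and 22.6% (14.6 to 32.4) in KO2. These intervals, which cover counting error only, overlapped between genotypes. The shares in precursor cells were 40.2%, 25.5%, 68.1% and 59.0%, and those of both KO libraries lay above those of both WT libraries.

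Id3 was not called between genotypes over all cells, at 15.4 CPM in WT1, 10.3 CPM in WT2, 7.24 CPM in KO1 and 11.3 CPM in KO2 (log2 fold change -0.50, SE 0.26, edgeR adjusted p = 0.401). The libraries overlapped. In precursor cells the chimeras went opposite ways, with a KO to WT ratio of 0.233 in chimera 1 and 1.19 in chimera 2, and a log2 fold change of -0.80 (SE 0.41, adjusted p = 0.668). Without KO2 this became -2.01. Of precursor cells 38.0%, 57.7%, 9.48% and 34.2% lay in naive-like clusters in WT1, WT2, KO1 and KO2. Outside these clusters their Id3 was at 2.44, 26.7, 7.56 and 12.6 CPM, from 2, 6, 7 and 5 UMIs. There KO lay above WT in chimera 1 and below it in chimera 2, the reverse of all gated precursor cells. In naive-like cells the ratios were 0.657 and 1.41 (log2 fold change 0.05, SE 0.28, adjusted p = 0.985). In the remaining T cells Id3 was lower in KO in both chimeras, with ratios of 0.418 and 0.655. The log2 fold change there was -0.93 (SE 0.24, adjusted p = 0.21), and with the block Id3 was called (-0.92, SE 0.24, adjusted p = 0.0204). The remaining T cells outside naive-like clusters had Id3 at 2.87, 2.72, 1.84 and 2.71 CPM, with ratios of 0.643 and 0.997, so that the difference in chimera 2 was no longer seen there.

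Id1, known mainly as a target of bone morphogenetic protein signals, was close to absent. It was at 0.536, 0.334, 0.847 and 1.54 CPM in all T cells of WT1, WT2, KO1 and KO2 and at 0 in naive-like cells. Over all cells its log2 fold change was 1.13 (SE 0.36, edgeR adjusted p = 0.229). Of its UMIs 66.7%, 78.6%, 65.5% and 78.6% lay in clusters of other cell types, so that this value depends on how many such cells a library held. In cycling cells 2, 0, 9 and 13 UMIs were counted, or 0.665, 0, 4.34 and 5.55 CPM, and Id1 was higher in KO with the block (adjusted p = 0.00868) but not called without it (adjusted p = 0.171). Of these UMIs 0, 0, 8 and 4 came from 1, 8, 6 and 8 cycling cells with UMIs of at least 2 of 8 progenitor and basophil genes such as Mpo, Prtn3 and Mcpt8, a list chosen after values had been seen. The summed level of the 7 myeloid genes in cycling cells moved the same way, at 822, 2232, 4227 and 4062 CPM in WT1, WT2, KO1 and KO2, led by Cst3 in WT1 and S100a8 in the others, and its part in the Id1 difference was not tested. For T cells in clusters named cycling, Id1 was at 0.766, 0.287, 1.61 and 0 CPM, from 2, 1, 5 and 0 UMIs. No rise in KO was thus seen there in chimera 2, from counts too low to give a direction. A KO1 cluster so named (165 cells) had Prss34, Mcpt8 and Mpo among its leading genes, with Id1 at 5.65 CPM. Clusters so named in WT1 and KO2 had globin genes such as Hba-a1 among theirs. Id1 (ENSMUSG00000042745) lies at chr2:152736251-152737410.

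Tcf3 was the most abundant E protein gene in T cells. Its level was 114, 86.4, 73.6 and 134 CPM in naive-like cells of WT1, WT2, KO1 and KO2, 114, 106, 123 and 131 CPM in terminal cells and 103, 100.1, 110 and 116 CPM in the remaining T cells. It was called in no class against the mean of the others, with log2 fold changes from -0.14 in naive-like to 0.14 in terminal cells (adjusted p = 0.622 and 0.0623). Against the remaining T cells alone it was higher in terminal (0.17, adjusted p = 0.0249) and cycling cells (0.14, adjusted p = 0.0298). Between genotypes the log2 fold change over all cells was 0.18 (SE 0.09, edgeR adjusted p = 0.413). Tcf3 (ENSMUSG00000020167) lies at chr10:80409514-80433647.

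Tcf12 went with Id3 in naive-like cells. It was at 32.5, 56.5, 54.0 and 65.2 CPM there, from 10, 17, 11 and 19 UMIs in WT1, WT2, KO1 and KO2, against 19.9, 23.5, 21.3 and 25.0 CPM in the remaining T cells. All naive-like values lay above all values of remaining T cells. Precursor cells had 26.8, 31.7, 17.5 and 35.3 CPM, below naive-like cells of the same library. The KO2 precursor value lay above the WT1 naive-like value, so that these classes overlapped across libraries. The log2 fold change was 1.16 against the mean of the others (SE 0.22, edgeR adjusted p = 0.00018) and 1.18 against the remaining T cells (adjusted p = 0.000134), and with stricter gates 0.79 (adjusted p = 0.294). Against the mean of the others Tcf12 was lower in terminal (-0.37, adjusted p = 0.00985) and cycling cells (-0.47, adjusted p = 0.00157), while against the remaining T cells the values were -0.04 and -0.12. The call in terminal cells was lost without WT1, WT2 or KO2 (adjusted p = 0.0617, 0.0742 and 0.0842). The gene (ENSMUSG00000032228) spans chr9:71842688-72111871 and overlaps genes of other types, whose reads may be split with it. In terminal cells Tcf12 was at 16.7, 16.7, 24.0 and 25.4 CPM, without overlap of the genotypes, but was not called between them (log2 fold change 0.55, SE 0.17, adjusted p = 0.222).

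Tcf4 was near 0 in T cells. Its level was 3.43, 2.73, 2.34 and 3.12 CPM in all T cells, and 55.9%, 59.5%, 71.7% and 63.8% of its UMIs in WT1, WT2, KO1 and KO2 lay in cells outside the T cell gate. It did not pass the filter on low counts in the comparison of classes. Over all cells the log2 fold change between genotypes was 0.20 (SE 0.16, edgeR adjusted p = 0.586), and within the T cell gate it was -0.19.

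**Figure D5:**
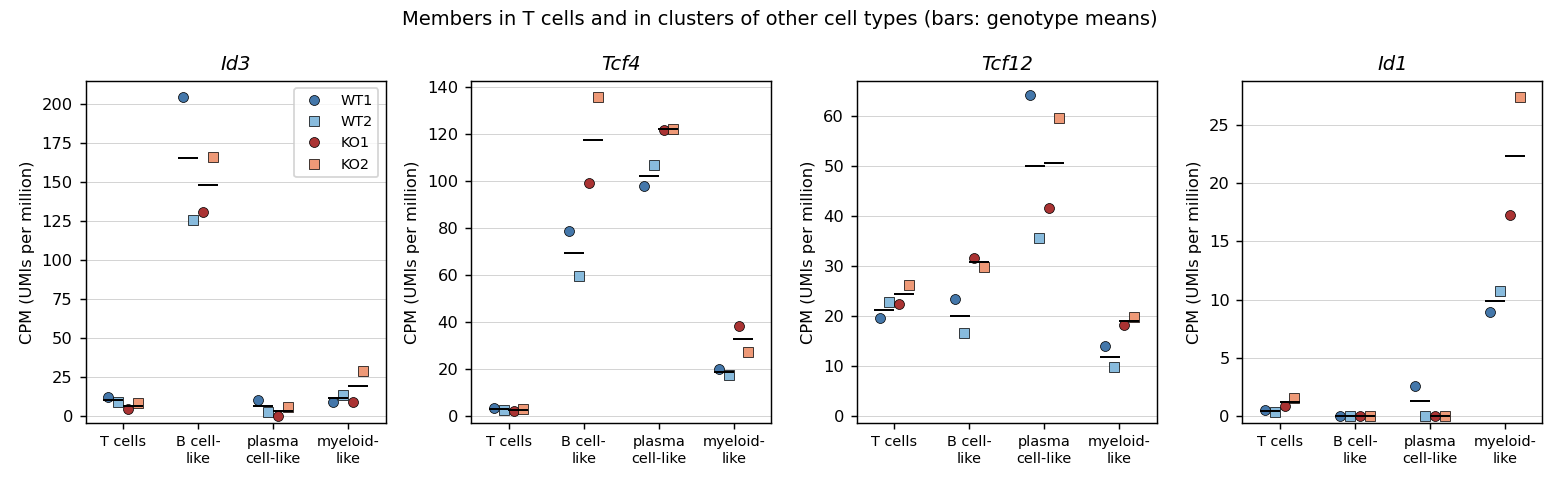
Levels (CPM, linear axes from 0) of Id3, Tcf4, Tcf12 and Id1 in T cells and in clusters of other cell types found in each library, with a point for each library and a bar for the mean of each genotype (n = 2). Id3 and Tcf4 were higher in B cell-like clusters than in T cells, Tcf4 also in plasma cell-like clusters, and Id1 was highest in myeloid-like clusters.

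The clusters of other cell types had other members of the family. B cell-like clusters (105, 120, 134 and 127 cells) had Id3 at 205, 126, 131 and 166 CPM and Tcf4 at 78.9, 59.6, 99.3 and 136 CPM. Tcf3 was there at 161, 162, 161 and 163 CPM. Plasma cell-like clusters had Tcf4 at 97.8, 107, 122 and 122 CPM and Tcf12 at 64.4, 35.6, 41.7 and 59.6 CPM, but Id3 at 10.3, 2.54, 0 and 5.96 CPM. Myeloid-like clusters had Id1 at 8.97, 10.8, 17.3 and 27.4 CPM. These clusters are small and were found from the cells themselves, and their levels are given without a test. Of all Id3 UMIs, 26.7%, 21.2%, 44.9% and 33.2% lay outside the T cell gate, so that levels of Id3 and Tcf4 over all cells depend on how many such cells a library held.

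UMIs of the 3 Id genes per UMI of the 3 E protein genes give the balance at the level of transcripts. In all T cells there were 6.03, 5.53, 8.96 and 9.96 in WT1, WT2, KO1 and KO2. Naive-like cells had 2.52, 2.28, 5.41 and 2.93, precursor cells 5.13, 3.68, 9.46 and 8.48, and terminal cells 6.22, 5.32, 7.83 and 9.02. The ratio was lowest in naive-like cells of every library and higher in both KO than in both WT libraries in each of these classes. B cell-like clusters had 1.37, 1.18, 1.43 and 1.15. Id3 made up 33.6%, 30.6%, 11.6% and 24.1% of the UMIs of Id2 and Id3 together in naive-like cells, 8.83%, 10.7%, 1.07% and 4.43% in precursor cells and 0.139%, 0.405%, 0.201% and 0.236% in terminal cells. In the former classes the share was lower in both KO than in both WT libraries, and in terminal cells the genotypes overlapped. In precursor cells outside naive-like clusters it was 0.312%, 3.82%, 0.565% and 0.752%, where the genotypes overlapped too.

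Genes that act with this family were taken from lists by role. Of 13 genes that E proteins are known to activate in lymphocytes, 6 were tested between classes. Cxcr5, a chemokine receptor of follicular lymphocytes, Foxo1, a transcription factor of quiescent T cells, and Il7r, the receptor of interleukin 7, were higher in naive-like cells against the mean of the others (log2 fold changes 3.11, 0.89 and 1.64; edgeR adjusted p = 7.17e-06, 1.3e-05 and 1.82e-07). The other 3 were not called there, with Notch1 at 0.12, Gfi1 at -0.57 and Cdkn1a at -1.48 (adjusted p = 0.89, 0.365 and 0.149). Over the 26 partner genes tested, 3 were called in naive-like cells (11.5%), 3 in precursor (11.5%) and 5 in terminal cells (19.2%), beside 10.5%, 5.27% and 21.5% of all genes, so that the shares in naive-like and terminal cells were near those of all genes. Cxcr5, Foxo1 and Il7r were also higher in precursor cells (1.67, 0.38 and 2.56) and lower in terminal cells (-1.57, -0.44 and -1.35). Il7r belongs to the precursor gate, so its difference there is fixed by the gate, and its values in the other classes, set against a mean that includes precursor cells, are in part fixed too. Against the remaining T cells alone, Foxo1 in precursor and Cxcr5 in terminal cells were no longer called. In cycling cells Cxcr5, Foxo1 and Il7r were lower and Cdkn1a, an inhibitor of the cell cycle, was higher (1.43, adjusted p = 1.43e-07). Without Il7r, the median over the other 5 genes was 0.12 in naive-like, 0.09 in precursor, -0.06 in terminal and -0.07 in cycling cells, beside medians of -0.03, 0.02, 0.0012 and -0.02 over all 9256 genes.

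Of 9 cofactors of E proteins, 7 were tested between classes and none was called by edgeR in naive-like, precursor or terminal cells (0, 1 and 0 at an unadjusted p under 0.05, beside 20.6%, 16.1% and 31.9% of all genes) or by DESeq2, which called 10.1%, 5.09% and 19.2% of genes. In cycling cells, where 45.9% of all genes were called, 12 of the 26 partner genes tested were called by edgeR (46.2%), a share near that of all genes. There Lmo2 (3.59) and Cbfa2t3 (1.22) were higher and Crebbp (-0.50), which encodes a histone acetyltransferase, and Ldb1 (-0.26) were lower, of which Ldb1 was not called by DESeq2 (adjusted p = 0.0569). Of 6 other bHLH partners only Lyl1 passed the filter, and it was higher in cycling cells (1.45, edgeR adjusted p = 0.000516). Of 16 genes known to act upstream of Id genes, 12 were tested. Stat4, which transmits interleukin 12 signals, was higher in terminal cells (0.33) and Batf lower (-0.33), where 21.5% of all genes were called, and Stat4 (-0.51), Tgfbr2 (-0.58) and Smad4 (-0.47) were lower in cycling cells. Stat4 in terminal cells (0.08) and Smad4 (-0.23) and Ldb1 (-0.19) in cycling cells were not called against the remaining T cells alone. Lmo2, Lyl1 and Cbfa2t3 are also known from blood progenitors, which the progenitor and basophil genes above mark in some cycling cells, whose part here was not tested. Id4, the fourth Id gene, had no UMI in the cells kept.

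Between genotypes over all cells, none of the partner genes tested was called without the block (8 cofactors, 9 E protein targets, 14 upstream genes and 3 bHLH partners), with 3, 2, 1 and 0 at an unadjusted edgeR p under 0.05 (17.6% of the 34, beside 15.6% of all genes) and 0 called by DESeq2. With the block 3 of the 34 were called (8.82%), a share near the 9.65% of all genes. Of these, Ldb1, the adaptor that ties LMO proteins to E proteins, was higher in KO (0.72, SE 0.13, edgeR adjusted p = 0.00364), as were Lmo4 (0.53, SE 0.15, adjusted p = 0.0382) and Tgfbr2, a receptor of transforming growth factor beta (0.50, SE 0.10, adjusted p = 0.00505). Within classes with the block, Ldb1 was higher in terminal (0.63, edgeR adjusted p = 0.00664), cycling (0.79, adjusted p = 0.0101) and remaining T cells (0.73, adjusted p = 0.000407), and Tgfbr2 in remaining T cells (0.59, adjusted p = 0.00126). These were 1 of 24, 1 of 26 and 2 of 30 partner genes tested (4.17%, 3.85% and 6.67%), beside 6.04%, 3.35% and 7.66% of all genes. Without the block neither edgeR nor DESeq2 called a partner gene in any class (1, 1, 5, 4 and 3 at an unadjusted edgeR p under 0.05 in naive-like, precursor, terminal, cycling and remaining T cells, beside 7.83%, 7.75%, 11.3%, 8.6% and 12.3% of all genes), where DESeq2 called 0.605% (terminal), 0.384% (cycling), 0.839% (remaining) and 0.22% (precursor) of genes. The medians over all cells with the block were 0.41 for cofactors, 0.06 for E protein targets and 0.05 for upstream genes, beside 0.0073 over all 11566 genes.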

How the data were processed

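The authors extracted UMI counts with Cell Ranger 2.2.0 after bcl2fastq 2.17, per the submitters' processing notes, which name the build mm10, and deposited raw tables with 1 count for each gene in each barcode, empty droplets included and without normalization. The members and gene lists were chosen with earlier results of these data known. Named were the 6 members, the partner lists by role, and the 5 genes most like and most opposite Id2 and Id3. Of 27998 identifiers 27645 matched GENCODE vM21 (GRCm38), which gave coordinates.

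Cells were filtered as in the study's methods, and no doublet caller was run; the study left out clusters under 1%, which were kept here. Gates needed UMIs of 3 of 9 cycling, 2 of 5 naive-like (at least 1 of Ccr7, Dapl1 and Igfbp4), 3 of 5 precursor or 3 of 7 terminal genes, in this order. T cells had fewer than 3 of 7 B cell, 6 of 7 myeloid and 3 of 3 plasma cell genes. The gates' thresholds, and leaving out Npm3, Satb1, Cxcr3 and Ltb, were set after marker detection had been seen. The name and values of 1 naive-like marker are not reported here. Of T-gated cells, 84, 95, 91 and 99 in WT1, WT2, KO1 and KO2 fell into clusters of other cell types. Clusters were found per library with Seurat 5.3.0 (15 principal components, resolution 0.8, members left out of the variable genes) and named from 3 markers. The naive-like cluster of KO1 had Cd4 among its leading genes.

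The quasi-likelihood test of edgeR 4.0.16, with TMM scaling, filterByExpr and Benjamini-Hochberg adjustment over all genes tested at a threshold of 0.05, was run on counts summed per library, or per library and class, and was checked on simulated counts. Members that passed the filter numbered 6 over all cells and 4 between classes. In genotype tests without the block, p-values measure the spread between the 2 libraries per genotype. With the block they measure the spread left once the difference between chimeras is taken out. Between classes they measure the spread of classes within the 4 libraries and not that between animals. In all of these the spread of a gene was estimated with the help of other genes. The numbers pair the libraries, since both genotypes of a number come from the same animal, and the difference between chimeras in WT cells correlated with that in KO cells (r = 0.291 across 6863 genes over 10 CPM). For shares, cells were thinned to 1000 UMIs, which left out 25, 223, 15 and 19 cells of WT1, WT2, KO1 and KO2, with exact Clopper-Pearson intervals at 95% and, at 0, a limit of 3 counts. Alternatives were DESeq2 1.42.0, its size factors, no filter, thinning, other gates and filters, clusters and leaving out each library. All tests were two-sided. Fold changes were taken without length normalization, since 1 UMI stands for 1 captured transcript.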

Additional observations from a re-analysis of the deposited data

How the results depend on the processing

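Single values kept their direction and their side of the threshold in 508 comparisons with an alternative, and 37 reversed, 35 passed the threshold newly, 22 no longer passed and 5 moved. The cause of these changes was not tested.

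Over all cells, 0 of the 6 genes were called without a replicate block, and 1 (Id2) was called with the replicate block, DESeq2, no filter, thinning or at least 800 genes (0 to 1 on leaving out 1 library). The percent of all genes called was 0.363 without the block and 9.65, 1.81, 0.212, 0.666 and 0.389 in these settings (0.334 to 1.90 on leaving out 1 library). Within naive-like cells 1 became 0 with DESeq2 or stricter gates (0.208% and 1.16% of genes called, against 0.7%). Within terminal cells 0 became 1 with the replicate block, DESeq2, no filter, stricter gates or clusters of other types left out (6.04%, 0.605%, 2.72%, 0.548% and 0.606%, against 0.552%), and within cycling cells 2 with the replicate block or no filter (3.35% and 1.65%, against 0.249%) and 1 with DESeq2 or stricter gates (0.384% and 0.486%). In the remaining T cells 1 became 2 with the replicate block or no filter (7.66% and 3.73%, against 0.368%) and 0 with DESeq2 size factors or stricter gates (0.0754% and 0.147%). On leaving out 1 library the range was 1 to 2 in precursor and 0 to 1 in terminal, cycling and remaining cells, where 0.716% to 1.30%, 0.301% to 3.33%, 0.803% to 1.50% and 0.891% to 1.94% of genes were called. Between classes, the 2 genes called in precursor cells became 1 with stricter gates, DESeq2, thinning or no library term (1.13%, 5.09%, 2.60% and 1.04% of genes called, against 5.27%; 1 to 2 members and 2.63% to 4.16% of genes on leaving out 1 library), and the 3 in terminal cells became 1 with no library term (8.89%, against 21.5%). The replicate block changed no other call of these 6 genes than those given above.

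Reversed values, as log2 fold changes, were mostly small. Against the remaining T cells these were Id2 in precursor (-0.32), terminal (-0.12) and cycling cells (-0.48), Id3 in cycling cells (0.0811) and Tcf3 in precursor cells (0.0347). Tcf12 in precursor cells, at 0.0038, became -0.0111 with DESeq2 size factors, -0.0027 with DESeq2, -0.0266 with no filter, -0.0013 with no library term, -0.0029 without clusters of other types and -0.0174 without cells with CD4 markers. Tcf4 between genotypes was -0.19 in the T cell gate and -0.0025 after thinning. With stricter gates Tcf3 within precursor cells was -0.43, and the differences of the genotype effect were -0.34 (Id2, naive-like), -0.62 (Tcf3, precursor) and -0.19 (Id3, terminal).

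Leaving out each library in turn, the genotype difference ranged in naive-like cells from -0.38 to 0.31 for Id3 and from -0.38 to 0.41 for Tcf3, in precursor cells from -2.01 to 0.10 for Id3 and from -0.64 to 0.27 for Tcf12, in terminal cells from -0.18 to 0.41 for Tcf4, in cycling cells from -1.10 to 0.0728 for Id3, and in remaining T cells from -0.0144 to 0.17 for Tcf12. Between classes the ranges were -0.0080 to 0.15 for Id2 in cycling cells and, in precursor cells, -0.17 to 0.24 for Tcf12 and -0.10 to 0.0555 for Tcf3. For the differences of the genotype effect they were -0.13 to 0.60 (Id2) and -0.55 to 0.26 (Tcf3) in naive-like, -0.83 to 0.93 (Id3) and -0.68 to 0.0844 (Tcf12) in precursor, and -0.0338 to 0.25 (Tcf3) in cycling cells. A lone library is then assumed to vary like the other genotype's.

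With clusters in place of gates, mean levels moved by more than 1 SD over the 4 libraries for Id1 in naive-like (0.394 CPM), Tcf3 in terminal (134 CPM) and Tcf4 in terminal cells (2.50 CPM). Id1 in cycling cells went from 2.64 ± 2.72 to 0.666 CPM, within that spread, and in the remaining T cells, which were not among the levels so compared, Id3 went from 5.65 to 2.79 CPM and Id1 from 0.680 to 0.238 CPM. Leaving cells of naive-like clusters out of the gated classes took mean Id3 in precursor cells from 47.3 to 12.3 CPM and in the remaining T cells from 5.65 to 2.54 CPM. Those clusters had Id3 and the precursor marker Tcf7 among their leading genes in each library. Without thinning, T cells with an Id2 UMI made up 82.6%, 68.9%, 90.8% and 91.3% in WT1, WT2, KO1 and KO2, and with an Id3 UMI 3.04%, 1.36%, 1.25% and 1.42%. Depth limits Id1 and Tcf4, and Id3 in terminal cells (4, 6, 16 and 17 UMIs).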

Other observations

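Clusters led by interferon-stimulated genes (Irf7, Isg15, Isg20, Ifit1, Ifit3 and Usp18) were found in each library, with 368, 472, 376 and 467 cells in WT1, WT2, KO1 and KO2. Id2 was at 1174, 837, 1780 and 1920 CPM in them, above its level in all T cells of the same library in each case, while Id3 was at 3.68, 3.10, 2.79 and 2.05 CPM. This observation was chosen after its values were seen, and no test was run on it.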
